A study of Mus musculus with 24 samples.

Results

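The cytosolic ribosome of the mouse is built from ribosomal RNA and a fixed set of ribosomal proteins, and the genes for these proteins were examined here together with Rps4l, a copy of the small-subunit gene Rps4x. Members were the protein-coding genes whose symbol starts with Rpl or Rps and a digit, with Rplp0, Rplp1, Rplp2 and Rpsa, leaving out the kinases named Rps6k, symbols with -ps, and Rpl10l. This rule found 85 of the 47069 gene identifiers in the count files, 51 with an Rpl symbol (large subunit) and 34 with an Rps symbol (small subunit). It also takes in Rps19bp1, a binding protein of Rps19 and not itself a part of the ribosome. Rps4l is annotated as a transcribed processed pseudogene and not as protein-coding, so it falls outside the rule, and it was counted on its own in all that follows.

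RNA of hippocampal tissue was sequenced from males of 2 to 4 months of age in 18 libraries, each a pool of 3 mice, with 3 libraries in each of 6 groups. In a constitutive line on a mixed C57/129 background, mice without Kdm5c (labelled Kdm5c -/- or KO; the gene is X-linked) and wild-type mice were either untreated or had explored a box with toys for 1 h (novelty). In an inducible line kept on C57BL/6J, ifKO mice carried Kdm5c f/f with CaMKIIα-creERT2, a tamoxifen-dependent recombinase driven in excitatory forebrain neurons, so that other cells keep the gene, and were compared with controls whose recombinase and tamoxifen status the labels do not state. Both groups of the inducible line were untreated in the sense of no novelty exploration. The constitutive line was read with single reads of 50 nt and the inducible line with paired reads of 75 nt, on different flowcells. Counts in genes ran from 16 to 45.6 M per library in the constitutive line and from 36.3 to 44.0 M in the inducible line. Since every library is a pool, SDs and p-values refer to differences among pools of mice, not among single animals.

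Ribosomal protein genes are transcribed at high rates in most cells, and their messenger RNAs start with an oligopyrimidine tract through which the mTOR kinase controls their translation. Mammalian genomes also hold many processed copies of these genes, which arose when their messenger RNAs were copied back into DNA. Most such copies are silent, and a few are transcribed. Kdm5c encodes a demethylase of lysine 4 on histone H3 and represses, among others, genes of the germline in the brain.

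Rps4l lies on chromosome 6 at 148354656 to 148355598 (GRCm38, plus strand), and its longest annotated transcript is unspliced, with 943 nt. That transcript holds an open reading frame of 262 codons from base 55 to base 843. Rps4x, the X-linked gene of ribosomal protein S4, lies on the minus strand of chromosome X at 102184941 to 102189394 and has 263 codons. The coding sequences were the same at 632 aligned bases and differed at 157, an identity of 79.8%, and the translated residues were 93.2% identical. The first 180 coding bases of either are shown because they decide whether reads can be told apart, with the 38 differing bases in capitals (GENCODE M21 transcripts, 5′ to 3′).
Rps4x: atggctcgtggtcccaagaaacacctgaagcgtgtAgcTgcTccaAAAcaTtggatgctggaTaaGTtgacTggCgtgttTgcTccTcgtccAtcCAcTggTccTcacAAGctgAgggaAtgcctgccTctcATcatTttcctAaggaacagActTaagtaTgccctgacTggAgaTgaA
Rps4l: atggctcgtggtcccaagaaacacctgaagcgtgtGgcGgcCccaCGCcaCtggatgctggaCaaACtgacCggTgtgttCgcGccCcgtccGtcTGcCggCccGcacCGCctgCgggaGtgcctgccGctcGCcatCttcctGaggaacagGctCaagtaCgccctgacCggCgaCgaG
The longest run without a difference was 35 nt over the whole coding sequence, shorter than a read of either line. Of the 50-nt windows of the Rps4l transcript, 14.9% also occurred in a transcript of another gene, and all 133 of these were shared with Rps4l-ps, a processed pseudogene on chromosome 7. Rps4l-ps had no count in any of the 18 libraries. Of the 50-nt windows of Rps4x, 72.2% also occurred elsewhere, in 11 other genes, and 52.9% of its 75-nt windows.

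Kdm5c itself did not show the deletion in counts over the whole gene. It stood at 73.4 to 75.5 CPM (reads per M of all reads counted in genes, scaled by factors over all libraries) in untreated wild type and at 74.5 to 75.4 CPM in untreated KO. After novelty it stood at 89.2 to 99.1 CPM in wild type and 76.9 to 85.5 CPM in KO, with an adjusted p of 0.107 for this difference. Controls had 63.4 to 68.9 CPM and ifKO 65.0 to 70.6 CPM. Such counts cannot show the loss of single exons and so check neither genotype. Hippocampal neuron markers (Prox1, Calb1, C1ql2, Wfs1, Neurod6, Slc17a7 and Snap25) were read throughout, summing to 3487 to 4015 CPM in the constitutive and 3503 to 3600 CPM in the inducible line, and 0 of these 7 were called in any comparison. Earlier results of these data set apart WT_novelty replicate 1 and KO_novelty replicate 2, and results that rest on them are given with and without both.

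Rps4l rose about 4-fold in KO hippocampus, and no difference was detected for Rps4x. In untreated wild type Rps4l had 8.96, 13.3 and 12.04 CPM, and in untreated KO 51.4, 43.4 and 49.2 CPM. Every KO library lay far above every wild-type library. The log2 fold change was 2.06 ± 0.18 (SE, n = 3 libraries per group), a 4.17-fold rise with a 95% interval of 3.20 to 5.42 (edgeR quasi-likelihood test, adjusted p = 1.79e-05 over 16392 tested genes). By p-value it stood at place 20 of all tested genes and by fold change at place 37. Rps4x had 24.9, 27.6 and 24.0 CPM in untreated wild type and 25.9, 25.5 and 24.1 CPM in untreated KO. These overlapped, with a log2 difference of -0.02 ± 0.08 and a 95% interval from -0.19 to 0.15.

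Rps4l was also higher in KO after novelty, in separate libraries. Wild-type libraries had 15.03, 8.56 and 9.48 CPM and KO libraries 48.8, 52.1 and 49.9 CPM, again without overlap. The log2 fold change was 2.19 ± 0.18, or 4.56-fold with a 95% interval of 3.51 to 5.93 (edgeR, adjusted p = 1.09e-05). Without both libraries set apart it was 2.46, and the untreated comparison then gave 2.05. After novelty Rps4x had 27.1, 23.2 and 25.1 CPM without and 26.6, 27.8 and 26.3 CPM with the knockout, a log2 difference of 0.10 ± 0.08 (adjusted p = 0.867).

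**Figure D1:**
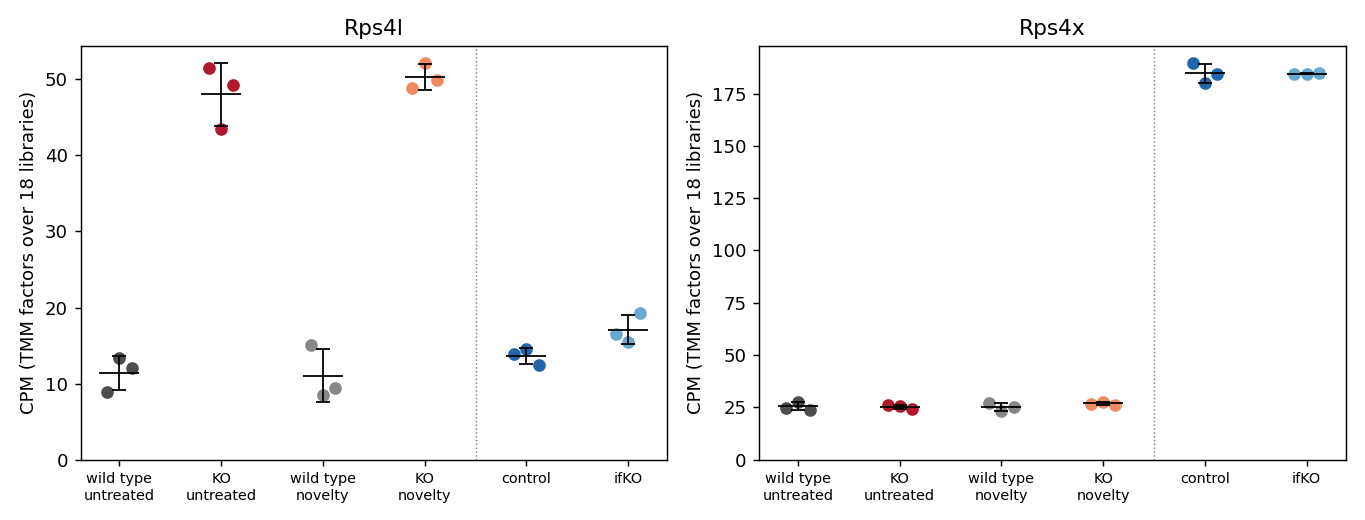
Levels of Rps4l (left) and Rps4x (right) in CPM, 1 point a library, with the mean and SD of 3 libraries in black; the dotted line parts the constitutive line from the inducible line. Rps4l lies between 43.4 and 52.1 CPM in the 6 KO libraries and at or below 19.2 CPM in the other 12, while Rps4x overlaps between genotypes within each line and lies far higher in the inducible line.

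Novelty for 1 h left no detectable mark on Rps4l in either genotype. The log2 change was -0.07 ± 0.18 in wild type (adjusted p = 0.944), with a fold of 0.955 and a 95% interval of 0.725 to 1.26. In KO it was 0.06 ± 0.16 (adjusted p = 0.988), with a fold of 1.04 and an interval of 0.822 to 1.33. The genotype effect after novelty exceeded that at rest by 0.13 ± 0.25 on the log2 scale (edgeR interaction term, adjusted p = 0.9999), with an interval from -0.40 to 0.66. Without both libraries set apart the novelty change of Rps4l was -0.37 in wild type (adjusted p = 0.153) and 0.03 in KO (adjusted p = 0.898), and the interaction 0.40 (adjusted p = 0.221).

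In the inducible line Rps4l had 13.9, 14.5 and 12.5 CPM in controls and 16.6, 15.5 and 19.2 CPM in ifKO. All ifKO libraries lay above all controls, as did those of 6.12% of all tested genes. The log2 fold change of 0.33 ± 0.09, or 1.26-fold with an interval of 1.10 to 1.44, did not pass the threshold (edgeR, adjusted p = 0.252). The KO effect at rest was larger than the ifKO effect by 1.73 ± 0.22 on the log2 scale, a ratio of 3.32 with an interval of 2.41 to 4.59 (edgeR over all 18 libraries, adjusted p = 0.000731). KO and ifKO differ in age at deletion, deleted cells, genetic background, read type and flowcell, and these cannot be told apart. In bulk tissue, a change in the number of cells that express a gene and a change in RNA per cell cannot be told apart either. Rps4x had 189, 180 and 184 CPM in controls and 184, 184 and 185 CPM in ifKO, a log2 difference of 0.00 ± 0.03.

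Per kilobase of longest transcript, Rps4l reached 12.1 ± 2.38 CPM (SD, n = 3) in untreated wild type and 50.9 ± 4.36 CPM in untreated KO. Rps4x had 26.2 ± 1.94 and 25.8 ± 1.00 CPM per kb in these groups. In controls of the inducible line the per-kilobase level was 14.5 ± 1.10 CPM for Rps4l and 189 ± 4.75 CPM for Rps4x. Rps4l thus stood above Rps4x in KO libraries only, all of them read at 50 nt, a length at which 72.2% of the windows of Rps4x are shared.

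Among ribosomal protein genes proper, 0 of 81 tested members were called in untreated KO, beside 1.24% of all tested genes. At an unadjusted p under 0.05 there were 5 (Rps25, Rps16, Rpl22l1, Rpl31 and Rpl36a), all lower in KO, beside 8.66% of all tested genes at that p, and 0 were called with DESeq2. The smallest adjusted p was 0.264, for Rpl36a, a large-subunit protein with an autosomal copy. Of 85 members, 4 did not pass the filter on low counts in the constitutive line: Rpl39l, Rpl3l, Rps27rt and Rps29. The median log2 fold change of the tested members was -0.06 and that of all tested genes 0.00, with values above 0 in 21 of 81 members and 50.5% of all genes. Large-subunit members had a median of -0.09 and small-subunit members of -0.04.

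Libraries of 10 members (12.3% of those tested) did not overlap between untreated KO and wild type, beside 21% of all tested genes. All 10 were lower in KO and 0 higher. Of all tested genes, 11.7% had every KO library above, and the rest of the 21% had every KO library below. The 10 members were Rplp0, the scaffold of the ribosomal stalk, with Rpl7a, Rpl22l1, Rpl23a, Rpl31, Rpl32, Rpl36a, Rps7, Rps16 and Rps28. Rpl22l1, the paralogue of Rpl22, had 19.4, 20.0 and 20.0 CPM in wild-type libraries, all above the 15.7, 17.2 and 16.1 CPM of KO libraries (log2 difference -0.28 ± 0.09, adjusted p = 0.265). Leaving out both novelty libraries set apart brought Rpl22l1 to -0.28 with an adjusted p of 0.0454. After novelty Rpl22l1 ranged from 16 to 20.2 CPM in wild type and from 15.8 to 17.3 CPM in KO, which overlapped. Rps25, a small-subunit protein needed for internal initiation on some viral messages, had 1.22, 2.20 and 2.86 CPM in wild-type libraries and 1.19, 1.42 and 1.24 CPM in KO libraries (-0.76 ± 0.25, adjusted p = 0.290). Its groups overlapped through wild-type replicate 1, without which the difference was -0.996 with an adjusted p of 0.0474.

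**Figure D2:**
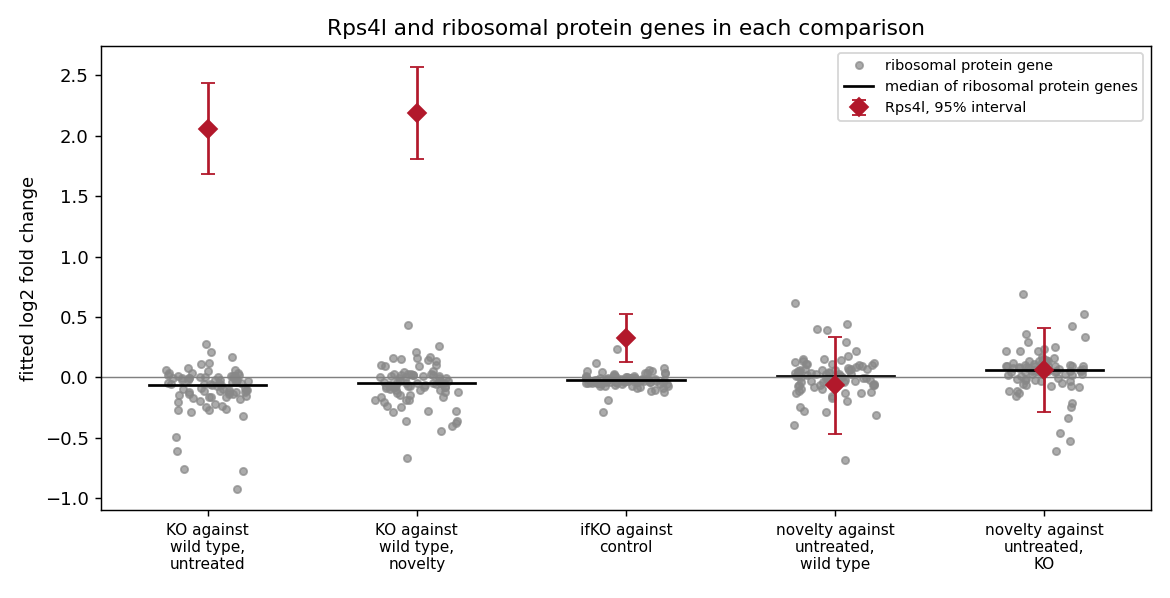
Fitted log2 fold change of each tested ribosomal protein gene (grey points, spread sideways for visibility), their median (black line) and Rps4l with its 95% interval (red) in 5 comparisons. Members lie on both sides of 0 in every comparison, from -0.92 to 0.28 in untreated KO, where Rps4l stands at 2.06. More members lie below 0 than above in each genotype comparison, and more above than below in both novelty comparisons. In some alternative fits the median changed sign for KO after novelty and for novelty in wild type.

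After novelty 0 of 81 members were called between KO and wild type, beside 1.34% of all tested genes, and 0 had an unadjusted p under 0.05 (8.73% of all tested genes) or were called with DESeq2. Their median was -0.05, with values above 0 in 27 of 81 members and 50.6% of all tested genes. Over 16 alternative fits this median ran from -0.10 to 0.06, so its sign depended on the processing. Libraries of 3 members did not overlap, beside 11.2% of all genes, 1 of them with every KO library above (6.59% of all genes). The largest fitted values were 0.44 ± 0.23 for Rps6, the substrate of S6 kinase, and -0.66 ± 0.46 for Rpl24, both at 2.03 CPM or less in every constitutive library. The effect of novelty itself called 0 of 81 members in wild type (0.384% of all tested genes) and 0 of 81 in KO (0.11%). At an unadjusted p under 0.05 there were 4 in wild type (Rpl10, Rps25, Rpl30 and Rpl39), beside 10.96% of all tested genes, and 1 in KO (Rps12), beside 6.72%. DESeq2 called 0 in both. The medians were 0.01 and 0.06, with values above 0 in 46 and 58 of 81 members, beside 49.3% and 51.5% of all tested genes. Over 16 alternative fits the median ran from -0.06 to 0.05 in wild type and from 0.01 to 0.09 in KO. In wild type 7 members did not overlap (15.9% of all genes), 5 of them with every novelty library above (8.39%), and in KO 8 (15%), 6 of them above (8.6%). The genotype-by-novelty term called 0 members and 0% of all tested genes, with 1 member (Rps25, 1.02 ± 0.37) at an unadjusted p under 0.05, beside 3.43% of all tested genes, and 0 called with DESeq2. Without both libraries set apart, calls over all genes went from 63 to 451 for novelty in wild type, from 18 to 63 for novelty in KO and from 0 to 331 for the genotype-by-novelty term, while 0 members were called in each of these 3. Comparisons of the constitutive line share libraries, so their values are not independent of each other.

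In the inducible line 84 of 85 members were tested, all but Rpl39l, and 0 were called in ifKO, beside 0.645% of all tested genes. There were 2 with an unadjusted p under 0.05 (Rpl32 and Rpl13a), beside 6.64% of all tested genes, and 0 called with DESeq2. The median was -0.02, with values above 0 in 19 of 84 members and 50.6% of all tested genes. Libraries of 9 members (10.7% of those tested) did not overlap, beside 12% of all tested genes in either direction. All 9 were lower in ifKO. Of all tested genes, 6.12% had every ifKO library above, and the rest of the 12% had every ifKO library below. The largest fitted value belonged to Rpl13, a large-subunit protein, with 69.0, 77.5 and 68.1 CPM in controls and 71.2, 69.0 and 112 CPM in ifKO. Only ifKO replicate 3 was high, and the groups overlapped. The log2 difference of 0.24 ± 0.15 had an adjusted p of 0.852 and was -0.03 without that library. For the difference between KO and ifKO effects 0 of 84 members were called (0.114% of all tested genes), 6 had an unadjusted p under 0.05, beside 4.00% of all tested genes, and DESeq2 called 0.

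How large a change could have gone unseen depends on level. In the constitutive line 50 members had a mean of at least 10 CPM, and the 95% interval of the untreated KO difference lay within 1.5-fold of no change for 49 of them. After novelty this held for 50 of 50. In the inducible line 79 members reached that level and all 79 had such an interval. For the members below 10 CPM the intervals were wider, as in Rps16 (-0.92 ± 0.40 at a mean of 0.445 CPM in wild type and 0.221 CPM in KO).

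The summed level of the 85 members overlapped between genotypes in each comparison. In untreated wild type it was 2515, 2820 and 2628 CPM and in untreated KO 2623, 2484 and 2535 CPM, which overlapped. After novelty it was 2964, 2535 and 2538 CPM in wild type, with replicate 1 (one of the libraries set apart) the highest of the line, and 2774, 2539 and 2636 CPM in KO. Controls had 8252, 8386 and 8046 CPM and ifKO 8145, 8069 and 8107 CPM. Neither genotype contrast parted the sums, whereas both lines differed about 3-fold.

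**Figure D3:**
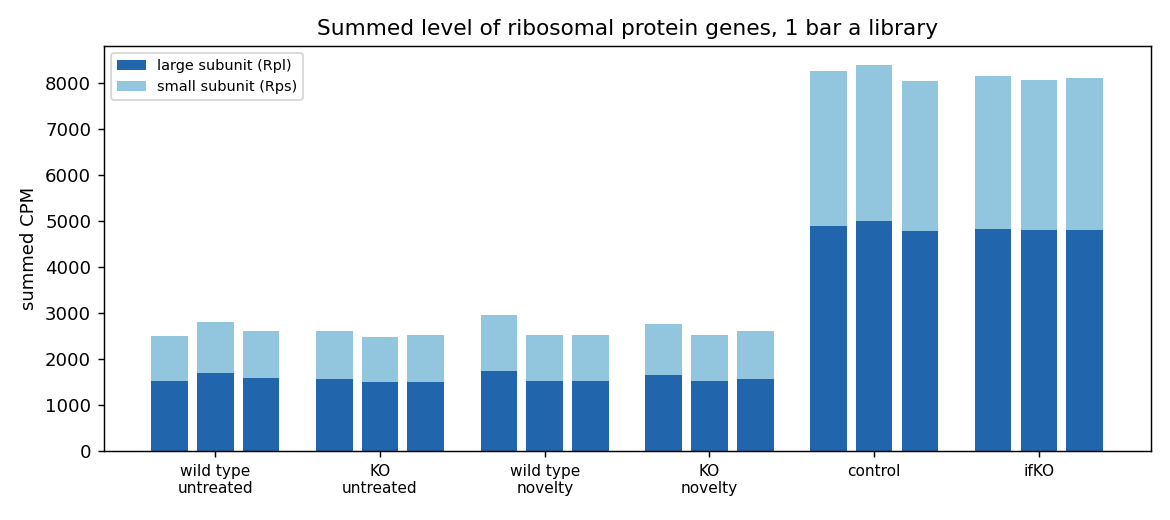
Summed CPM of the members other than Rps19bp1, 1 bar a library in groups of 3, split into large-subunit (dark) and small-subunit (light) genes. With Rps19bp1 added, sums lie between 2484 and 2964 CPM in the 12 constitutive libraries and between 8046 and 8386 CPM in the 6 inducible ones.

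This difference between lines went with shared sequence. In the deposited counts, alignments reported as not unique made up 21.9 to 23.6% of all alignments in the 50-nt libraries and 11.8 to 12.7% in the paired 75-nt libraries. The log2 ratio of mean CPM (with 0.1 CPM added) of controls over untreated wild type had a median of 2.16 over the 85 members and exceeded 8-fold in 32 of them. Among the 9 members with under 10% of their 50-nt windows shared with another gene the median was 0.17 (range -0.49 to 1.27). Among the 26 with 10 to 50% it was 1.26, and among the 50 with more it was 3.40. Across the 85 members Pearson's r of ratio and shared share was 0.57 and Spearman's rho 0.62, as a description of genes that share their libraries. Mitochondrial ribosomal proteins, which are made from other genes and build the ribosome inside mitochondria, summed to 1724 to 1932 CPM in the constitutive and 1755 to 1796 CPM in the inducible line.

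Some members with few shared windows had similar levels in both lines. Rps3, which also acts in DNA repair, had 2.96% of its windows shared and 202 ± 16.9 CPM in untreated wild type against 192 ± 6.11 CPM in controls (SD, n = 3). Rpl8, with 7.86% shared, had 178 ± 13.0 against 157 ± 6.63 CPM. Other members with few shared windows were higher in controls. Rps20, with 7.57% shared, had 28.6 ± 2.85 against 69.3 ± 2.74 CPM. Rps15a, with 6.14% shared, had 81.7 ± 3.69 against 153 ± 2.07 CPM. At the other end Rpsa, which doubles as a laminin receptor, had 53.7% shared and 2.02 ± 0.50 against 236 ± 7.53 CPM. Rps29 had 35.8% shared and 0.177 ± 0.101 against 64.0 ± 9.12 CPM. In all, 30 members were under 5 CPM in untreated wild type and 4 in controls. Background, read length, pairing and flowcell cannot be told apart here, and Rps4l, with 14.9% shared, differed little between untreated wild type (11.4 ± 2.24 CPM) and controls (13.6 ± 1.03 CPM).

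**Figure D4:**
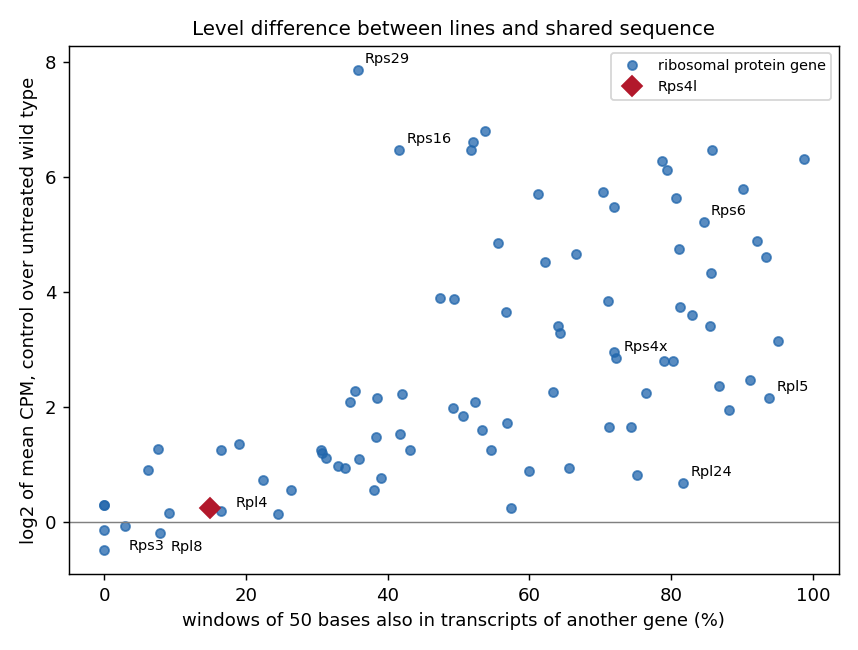
Each point is a ribosomal protein gene, with the percentage of 50-base windows of its transcript found in another gene's transcripts (x) and the log2 ratio of mean CPM, controls over untreated wild type (y); Rps4l is the red diamond. Rpl8 and Rps3, with few shared windows, lie near 0, but the 9 members with under 10% shared range from -0.49 to 1.27. Ratios reach 7.86 for Rps29.

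In the other sets of paralogues no tested gene was called, apart from Rpl22l1 without both libraries set apart, as given above. Rpl39l was tested in neither line, and Rpl3l and Rps27rt were not tested in the constitutive line. Rps27, a zinc-finger protein of the small subunit, has a paralogue Rps27l and a retrotransposed copy Rps27rt. Their first 120 coding bases are shown because Rps27 and Rps27rt cannot be told apart in them, with bases in capitals where the 3 sequences are not all alike (28 positions, GENCODE M21).
Rps27: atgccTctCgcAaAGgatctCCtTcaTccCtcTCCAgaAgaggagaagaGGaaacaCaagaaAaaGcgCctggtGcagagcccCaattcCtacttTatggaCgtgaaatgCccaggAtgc
Rps27l: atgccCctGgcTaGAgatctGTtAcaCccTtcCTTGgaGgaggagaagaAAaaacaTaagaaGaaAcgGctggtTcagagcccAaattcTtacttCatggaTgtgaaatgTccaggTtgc
Rps27rt: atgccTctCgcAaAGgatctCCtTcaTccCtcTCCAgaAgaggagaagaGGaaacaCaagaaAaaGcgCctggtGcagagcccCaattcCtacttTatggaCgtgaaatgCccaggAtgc
Rps27 and Rps27rt were identical over all 255 coding bases, and Rps27l matched Rps27 at 76.1% of them. Rps27 had 0.930 ± 0.387 CPM in untreated wild type and 81.3 ± 2.63 CPM in controls, while Rps27l had 4.21 ± 0.92 and 7.08 ± 0.30 CPM. Counts of Rps27 and Rps27rt are uncertain for this reason.

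Rpl36a and Rpl36al differ at 39 of 321 coding bases and encode the same residues. Rpl36a had 3.28 ± 0.37 CPM in untreated wild type and 35.6 ± 2.67 CPM in controls, and Rpl36al 4.19 ± 0.55 and 20.4 ± 1.41 CPM. Rpl22 was level in both lines at 79.4 ± 3.19 and 87.6 ± 1.27 CPM. Rpl3 had 15.1 ± 0.35 and 306 ± 4.06 CPM, and its muscle paralogue Rpl3l 0.343 ± 0.119 and 0.447 ± 0.186 CPM. Rpl7 had 64.1 ± 2.70 and 194 ± 5.46 CPM, against 32.0 ± 2.87 and 35.9 ± 1.35 CPM for Rpl7l1. Rpl39l, known as a testis paralogue of Rpl39, stayed at or under 0.401 CPM in every library.

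Scaled to the length of the longest transcript, the highest means over all 18 libraries belonged to Rplp1 (283 CPM per kb), a stalk protein, then Rpl4 (248), Rps15 (224), Rpl8 (168) and Rpl13a (135). The lowest were Rpl39l (0.107), Rpl3l (0.285), Rpl24 (0.557), Rps27rt (1.00) and Rpl36al (7.59). The order depended on the line: Rpl4 led in the constitutive line (236 CPM per kb, against 217 for Rplp1) and Rplp1 in the inducible line (416, against 272 for Rpl4), and Rps4x stood at 26.3 and 189. Rpl24, with 81.7% of its windows shared, had at most 0.642 CPM in any library, which is low for a core protein of the large subunit. These lengths and shared windows belong to 1 annotation and weight every transcript position alike.

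Genes that are not members but act with them held no called gene. Of Rack1, a scaffold on the small subunit, and Fau, which encodes a ribosomal protein fused to a ubiquitin-like protein, 0 were called in any comparison. Rack1 had 146 to 178 CPM in the constitutive and 135 to 145 CPM in the inducible line. In untreated KO 0 of 19 translation factors with an oligopyrimidine start were called, with a median log2 fold change of -0.03, and 0 of 26 ribosome biogenesis genes, with a median of -0.03. The 12 subunits and factors of RNA polymerase I had a median of -0.01 and the 20 genes of mTOR and S6 kinase signalling of 0.00, again with 0 called by edgeR. Over these 4 lists, 1 gene had an unadjusted p under 0.05 in untreated KO, in the last list, beside 8.66% of all tested genes. In ifKO the medians of these 4 lists were -0.01, -0.01, -0.03 and 0.02 with 0 called. At an unadjusted p under 0.05 there were 0, 1, 0 and 1, beside 6.64% of all tested genes. Of 78 mitochondrial ribosomal proteins 77 were tested, and 0 were called in any comparison. Those at an unadjusted p under 0.05 were 6 in untreated KO and 1 in ifKO, beside the same shares of all tested genes.

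Few other pseudogenes named after ribosomal proteins were read deeply enough to be tested. Copies under other names, such as Gm13680, which shares windows with Rps4x, were not counted among them. By symbol, 272 other pseudogenes of ribosomal proteins were in the files, of which 14 passed the filter in the constitutive line and 30 in the inducible line, and 0 were called in any comparison. At an unadjusted p under 0.05 there was 1 in ifKO, 1 in KO at rest and 2 after novelty. The shares of all tested genes at that p were 6.64%, 8.66% and 8.73%. Their summed level was 40.3 to 42.1 CPM in untreated KO and 40.5 to 46.2 CPM in untreated wild type, less than Rps4l alone reached in KO.

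No gene near Rps4l was called beside it. Within 1 Mb of Rps4l, 45 other genes were in the files, of which 12 were tested in the constitutive line and 14 in the inducible line, and 0 were called in any comparison (edgeR). At an unadjusted p under 0.05 there were 0 in either KO comparison and 1 in ifKO, where 6.64% of all tested genes had such a p. Rps4l lies inside the gene Tmtc1, which encodes an endoplasmic reticulum protein and runs on the opposite strand from 148232430 to 148444389, in an intron, since 0 annotated exons of Tmtc1 overlap Rps4l. The strand setting of the counting is not stated, so reads from intronic Tmtc1 RNA and from Rps4l cannot be told apart in these counts. Tmtc1 itself had 77.8 ± 4.92 CPM in untreated wild type and 87.6 ± 5.13 CPM in untreated KO (SD, n = 3), a log2 difference of 0.17 ± 0.11 (adjusted p = 0.743), and 0.00 ± 0.11 after novelty. Ergic2, a protein of the early secretory pathway with its start at -142.3 kb, had 0.09 ± 0.09 and 0.03 ± 0.09. Ipo8, a nuclear import receptor 476.8 kb away, had 0.11 ± 0.07 and 0.04 ± 0.07. The next tested gene, the transcript Gm44021 whose start lies 10 kb away, had 0.548 CPM in wild type and 0.799 CPM in KO at rest (0.61 ± 0.41, adjusted p = 0.772) and -0.39 ± 0.46 after novelty.

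**Figure D5:**
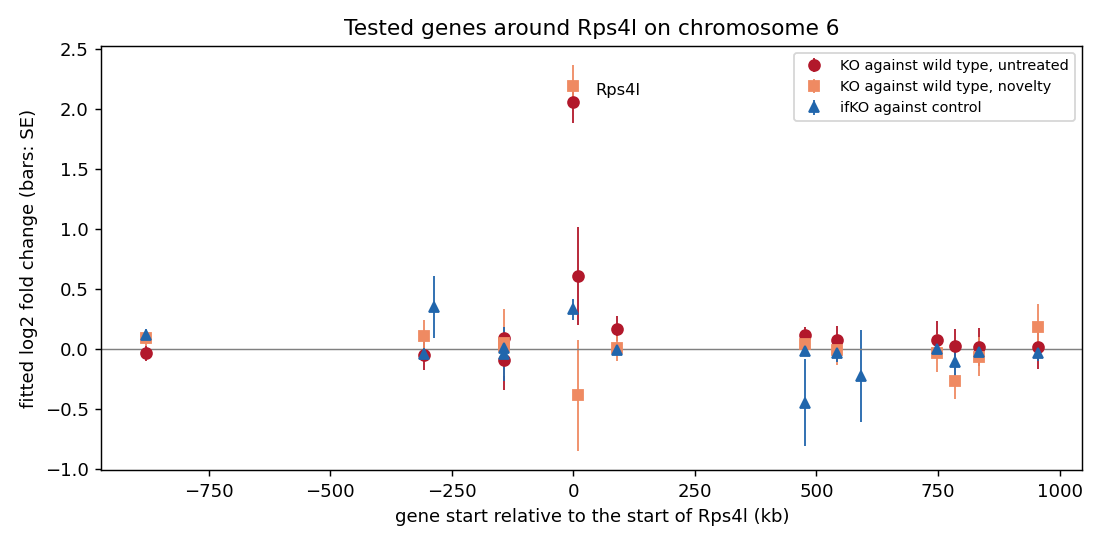
Fitted log2 fold changes (SE as bars) of the tested genes within 1 Mb of Rps4l on chromosome 6, by the distance of their start from that of Rps4l in kb, for KO at rest, KO after novelty and ifKO. Rps4l stands at 2.06 and 2.19 in KO, and the highest neighbour at 0.61.

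Genes whose levels followed Rps4l most closely over the 18 libraries were sought by Pearson's r of log2 CPM centred within each line, among 17433 genes. Among the highest were BC024139 (r = 0.98), Tex14, a protein of the bridges between germ cells (0.96), 4930524B15Rik (0.96) and Crybb1, a lens crystallin (0.96). The lowest were Spon1 (-0.92), Rxfp2 (-0.91), Ncald (-0.90), Mcm6 (-0.90) and Alox8 (-0.88). None of those named is a ribosomal protein gene, and none of them lies on chromosome 6. With 6 KO libraries apart from the rest, these values describe a shared difference between genotypes.

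Markers of other cell types that moved with the KO groups are given beside the rise of Rps4l. Of the germ cell markers Ddx4, Dazl and Tex14, 2 of 3 rose in untreated KO, Tex14 by 3.85 ± 0.16 and Ddx4 by 0.97 ± 0.20 (edgeR, adjusted p = 1.53e-08 and 0.0301), and Dazl had -0.03. Their summed level was 8.36 to 10.6 CPM in untreated wild type and 23.7 to 26.9 CPM in untreated KO, then 7.17 to 9.04 and 21.7 to 25.2 CPM after novelty. It was 11.3 to 12.6 CPM in controls and 9.99 to 11.4 CPM in ifKO. Of the striated muscle markers Acta1, Ckm and Myh2, only Acta1 was tested in the constitutive line and rose by 1.95 ± 0.13 (adjusted p = 1.61e-06). The summed muscle level was 4.48 to 5.37 CPM in untreated wild type and 16.4 to 18.8 CPM in untreated KO, 3.47 to 5.69 and 14.3 to 16.8 CPM after novelty, and 3.80 to 4.70 CPM in controls and 10.10 to 11.03 CPM in ifKO, where Acta1 rose by 1.43 ± 0.09 (adjusted p = 6.87e-06). Markers of inhibitory neurons, astrocytes, oligodendrocytes, microglia, endothelium and blood held 0 called genes in any comparison, but some sums did not overlap between untreated wild type and untreated KO. Astrocyte markers summed to 3489 to 4002 against 4305 to 4524 CPM, and oligodendrocyte markers to 2899 to 3137 against 2185 to 2458 CPM. Inhibitory neuron markers summed to 503 to 581 against 433 to 497 CPM. Microglia markers were barely parted, at 201.3 to 214.1 against 214.6 to 233.7 CPM. After novelty the sums of microglia, oligodendrocyte and inhibitory neuron markers overlapped, and astrocyte markers summed to 3317 to 4096.8 CPM in wild type and 4097.2 to 4209 CPM in KO. In the inducible line inhibitory neuron markers summed to 623 to 638 CPM in controls and 583 to 613 CPM in ifKO, without overlap. There the sums of astrocyte, oligodendrocyte and microglia markers overlapped. Of 3 meningeal markers (Dcn, Ogn and Col1a1) Ogn fell in untreated KO and in ifKO (-1.57 ± 0.35 and -1.29 ± 0.15, edgeR adjusted p = 0.0475 and 0.00100). The sums of all 3 overlapped in both comparisons. They were 69.9 to 75.9 CPM in untreated wild type and 58.7 to 72.7 CPM in untreated KO. Controls had 61.9 to 82.6 CPM and ifKO 60.6 to 69.8 CPM. Choroid plexus markers had 0 of 5 called and 5 of 5 at an unadjusted p under 0.05 in untreated KO, beside 8.66% of all tested genes. They summed to 80.5, 615 and 60.3 CPM in untreated KO. Only replicate 2 was that high, and untreated wild type had 39.1 to 45.0 CPM. After novelty the sums were 38.5 to 66.0 CPM in wild type and 36.5 to 60.1 CPM in KO. Controls had 406, 51.0 and 73.2 CPM, with replicate 1 the high one, and ifKO 45.0 to 83.2 CPM. The part of any of these cell types in the Rps4l result was not tested.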

How the data were processed

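The authors deposited unnormalized gene counts for 18 libraries (24 sample records, since paired libraries have a record for each read). The submitters' processing notes name HTSeq 0.6.1, STAR 2.5.0c, SAMtools 1.3 and DESeq2, and the build GRCm38. No source used here gives the annotation release or the strand setting. Libraries were stranded per the labels' protocols. Summary lines were left out; 46574 of 47069 identifiers matched GENCODE M21 and 495 did not. Reads that align to several places are listed as not unique in the deposited counts, outside any gene, which lowers genes with near-identical copies.

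Counts were analysed with edgeR 4.0.16 in R 4.3.3: TMM scaling, filterByExpr (minimum count 10, minimum total 15), quasi-likelihood tests and Benjamini-Hochberg adjustment over all tested genes, threshold 0.05. The constitutive line was fitted with 12 libraries, the inducible line with 6, and the KO and ifKO effects were compared over 18. The SE of a log2 fold change is its size over the root of F, and 95% intervals use the t distribution. Printed CPM use TMM factors over all 18 libraries. Fits were tested on simulated counts. Windows of 50 and 75 nt of each member's principal transcript were searched in all GENCODE M21 transcripts, and coding sequences were aligned with Biopython 1.88. The labels call the tissue hippocampus, although the extraction text speaks of cultures.

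Members, lists and tests were chosen with earlier results of these data known. Named were Kdm5c, Rps4l and Rps4x, paralogue pairs, Fau and Rack1, called members, the 5 highest and lowest members by length-scaled level, the 3 largest and smallest changes per comparison, tested genes within 1 Mb of Rps4l, the 5 most and least correlated genes, and called genes of each list; of these, those that show each result are printed, and some items are not reported here. Members with an unadjusted p under 0.05 or no overlap were named after their values were seen. So were the examples of shared and unshared sequence (Rps3, Rpl8, Rps15a, Rps20, Rpsa, Rps29). Lists are translation factors, ribosome biogenesis, RNA polymerase I, mTOR and S6 kinase, and markers of neurons, glia, endothelium, choroid plexus, meninges, blood, germ cells and striated muscle. Alternatives were RLE factors, DESeq2 1.42.0, other filters, the replicate block, GC and length offsets, library sizes without members, only the compared groups, and left-out libraries.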

Additional observations from a re-analysis of the deposited data

Results flagged for a closer look

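The change of Rps4l differed between both mutants, by a test of the difference itself. Untreated KO minus untreated wild type exceeded ifKO minus control by 1.73 ± 0.22 on the log2 scale (edgeR, adjusted p = 0.000731, n = 3 libraries per group), with the KO difference at 2.06 and the ifKO difference at 0.33. Every KO library lay above every wild-type library and every ifKO library above every control. With both kinds of mutant in different lines, the source of the difference was not tested.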

How the results depend on the processing

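Rps4l kept its direction and its call in all 16 alternatives for untreated KO (1.93 to 2.17), in all 16 for KO after novelty (2.02 to 2.48) and in all 22 for the difference between KO and ifKO effects (1.59 to 1.85). In ifKO it passed only without a filter on low counts (0.328, adjusted p = 0.00241), where 28667 genes were tested and 398 called against 112, and the adjusted p ran from 0.00241 to 0.895 over 14 alternatives. The count of members called went from 0 to 1 without both novelty libraries set apart (untreated KO, Rpl22l1, adjusted p = 0.0454) and without a filter in ifKO (1 member, Rpl13, 0.23, adjusted p = 9.85e-05). With single libraries left out it ranged from 0 to 1 in untreated KO and from 0 to 1 in the difference between KO and ifKO effects, in both cases through Rps25 without WT_untreated replicate 1 (-0.996 and -0.967, adjusted p = 0.0474 and 0.0144), and it stayed at 0 elsewhere. Over all genes the count of calls in untreated KO was 204, and 347 without a filter, 331 with GC and length offsets and 415 without both libraries set apart; after novelty it was 219, and 705 without both, for novelty in wild type 63 and 451, and for genotype by novelty 0 and 331. The labels do not say whether replicate numbers pair the libraries. Correlations of same-numbered libraries, as deviations from group means, ran from -0.19 to 0.30, and no comparison had all above 0.1. With 3 libraries per group such values cannot settle whether libraries were paired. With the replicate block Rps4l was at 2.05 in untreated KO (adjusted p = 0.000112), 2.20 after novelty and 0.33 in ifKO (adjusted p = 0.435), and the block changed no call of a member. Members below 10 CPM rest on fewer reads, and depth limits them most through counting error, which is larger in proportion.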
